A study of Homo sapiens with 58 samples.

Results

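The genes described here encode the proteins of the cytosolic ribosome, and the values are HuR (ELAVL1) CLIP tags in peaks that carry their names. Peaks were taken whose gene symbol is RPL or RPS followed by a number, with an optional suffix A, X, L or AL, together with RPLP0, RPLP1, RPLP2 and RPSA; pseudogenes were left out. The rule gave 364 of 387214 peaks, in 69 of 13836 named genes, and 24611 of 7887093 tags. RefSeq holds 82 protein-coding symbols that match it, and the 13 with no peak in the table were RPL10A, RPL10L, RPL17, RPL28, RPL29, RPL35, RPL36, RPL36A, RPL39L, RPL3L, RPL8, RPS14 and RPS15.

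HuR binds U-rich and AU-rich stretches of RNA, is mostly nuclear in unstressed cells and moves in part to the cytoplasm and to stress granules when cells are stressed. Ribosomal protein mRNAs are short, abundant and heavily translated, and they begin with a terminal oligopyrimidine (TOP) tract through which their translation is controlled together. Many of these genes also host small nucleolar RNAs (snoRNAs) in their introns, which are released from the spliced intron and stay in the nucleolus: box C/D snoRNAs guide 2'-O-methylation and box H/ACA snoRNAs guide pseudouridylation of ribosomal RNA.

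All 58 libraries came from Huh-7.5, a human hepatoma line, in which HuR was crosslinked to RNA with 254 nm UV and immunoprecipitated. Cells were mock treated or received 0.5 mM sodium arsenite, an oxidative stressor that induces stress granules, for 45 min. Nuclear and cytoplasmic fractions gave 3 libraries each per treatment (12 in all). The other 46 libraries came from 3 lines that express APEX, a peroxidase that biotinylates proteins near it, placed in nuclei (NLS line), in cytoplasm (NES line) or at stress granules (G3BP line). These cells were given 0.5 mM biotin phenol for 30 min and 1 mM hydrogen peroxide for 1 min in both treatments, so a peroxide pulse is shared by the mock and arsenite groups of these lines. Libraries named Input numbered 2 per treatment in NLS and in NES, and 4 (mock) and 5 (arsenite) in G3BP. Libraries named Enrich, read here as those given the added streptavidin capture that the protocol describes, numbered 4 per treatment in NLS and in NES, and 6 (mock) and 7 (arsenite) in G3BP. Whether replicates were separate cultures or each line was a single clone is not given in the sources used here, so the p-values measure the spread between these libraries, which may be technical.

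Values are CPM, tags per 1000000 of the library total. Fraction libraries held 648 to 1514 tags in ribosomal protein peaks, input libraries 2 to 6164 and enriched libraries 0 to 472, so the fractions carry most of what follows. Over all genes, 16 libraries had under 10000 tags in peaks, and 5 of them under 2000. All fraction libraries belong to the library set named JL0380 in the labels and no other library does, so fractionation and set cannot be told apart. The hepatocyte markers fixed for the check were seen at 11 of 13 genes (APOA1 and TTR had no peak) and summed to 817 to 2905 CPM in the fraction libraries, against at most 5.46 CPM for leukocyte, 1.60 for fibroblast and 1.73 for endothelial markers. The nuclear RNAs MALAT1 and NEAT1 were not depleted from the cytoplasmic fraction: they summed to 2788 to 3124 CPM in nuclear and 2265 to 2829 CPM in cytoplasmic mock libraries, and to 3028 to 3879 and 2603 to 3584 CPM after arsenite. In a bulk CLIP library a higher tag count cannot be separated into more RNA and more HuR per RNA.

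Pooled over all libraries, most HuR tags in ribosomal protein genes lay in the snoRNAs that these genes host, but the share differed widely between groups. Peaks annotated as snoRNA numbered 51 in 24 genes and held 16084 tags, 65.4% of the total. Peaks of the UTRs and coding sequence, called exonic here, numbered 161 in 53 genes with 5874 tags (23.9%), intronic peaks 142 in 49 genes with 2396 tags (9.74%), and 10 other peaks held 257 tags. The second NLS mock input library gave 6062 of the snoRNA tags, and without it the snoRNA share was 54.3%. In the nuclear fraction snoRNAs held 71.9% ± 1.00 of the tags in mock and 54.2% ± 3.73 in arsenite libraries, and in the cytoplasmic fraction 10.5% ± 0.850 and 4.79% ± 1.38 (SD, n = 3 each). Of the intronic peaks, 99 carry the table's label for introns retained in a coding transcript and 43 the plain intron label. Among the exonic peaks 108 were in 3'UTRs, 29 in coding sequence and 24 in 5'UTRs. The table classes 9 of the 51 snoRNA peaks by another feature that overlaps them (5 as 5'UTR, 3 as 3'UTR, 1 as coding sequence). These 9 are therefore counted with the snoRNAs in the family sums given below. Counts of exonic calls in the fraction tests and in capture against input are given with and without them.

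The tags were concentrated in few genes and few peaks. RPS12, a small-subunit protein, held 3164 tags (12.9%), RPL7A 3142 (12.8%), RPL13A 2424 (9.85%) and RPL23A 1767 (7.18%), and RPL23 held 1584. These sums pool all libraries, enriched ones included; over the 12 fraction libraries alone RPL23 came first with 1297 tags (11.8%), before RPS12 with 874, RPL13A with 843 and RPL7A with 612. The top peak alone held 11.8% of the tags and the top 10 held 43.9%. The median gene had 4 peaks, and RPL37A had the most with 16. The median peak held 13 tags, 147 for snoRNA peaks, 13 for exonic and 10 for intronic peaks. Of the 364 peaks, 268 averaged under 3 CPM in each of the 4 fraction groups, a level near the 1.71 to 4.37 CPM that 3 tags amount to in these libraries.

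All 51 snoRNA peaks overlapped a RefSeq snoRNA gene, and no other ribosomal protein peak did. Box C/D snoRNAs gave 36 peaks, 1 in each of 36 snoRNAs of 16 host genes, with 15727 tags and a median of 263.5 tags per peak (range 42 to 2908). Box H/ACA snoRNAs gave 15 peaks in 13 snoRNAs of 10 genes with only 357 tags, a median of 18 and at most 64. The 20-nt peaks sat toward the 3' end. In box C/D snoRNAs, whose median length was 73.5 nt, 33 of 36 peaks were centred beyond the midpoint, and a median of 15.5 bases of the snoRNA followed the peak (range 5 to 41). In box H/ACA snoRNAs, with a median length of 133 nt, 13 of 15 were centred beyond the midpoint and a median of 8 bases followed. The tag gap between both kinds is a description of peaks as called, since snoRNAs with no peak were not counted.

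**Figure D1:**
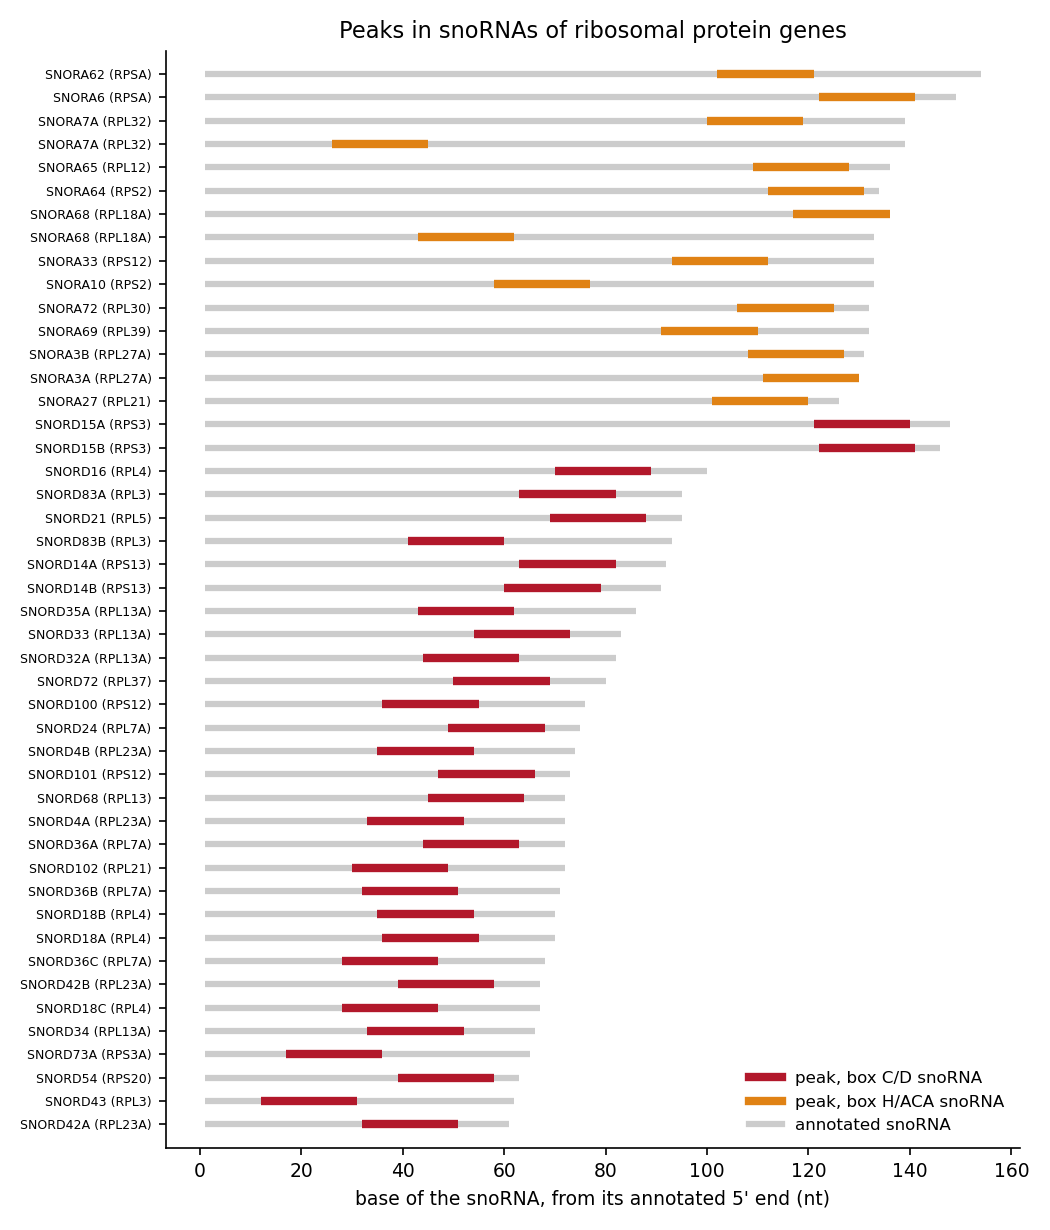
Position of each peak (20 nt bar) along the snoRNA it overlaps, in bases from the snoRNA's 5' end, for 46 of the 51 snoRNA peaks of ribosomal protein genes; box C/D snoRNAs are red and box H/ACA orange. Most bars lie on the right-hand side of their snoRNA; over all 51 peaks, 33 of 36 box C/D and 13 of 15 box H/ACA peaks were centred beyond the midpoint.

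Start sites were the only places where reference sequence could be set beside the peaks. Of the peaks, 10 lay within the first 50 bases after a RefSeq start. In RPL32 that start coincides with the 5' end of SNORA7A, and the peak is a snoRNA peak. RPS25 stood out among them with 153 tags, against 5 to 14 for the rest. The sequences below begin at the RefSeq start (GRCh38.p14) and show how the TOP tract and the peak lie to each other; the peak's 20 bases are in capitals, reading the table's start as counted from 0, and would shift by 1 base otherwise. RPS25 (chr11:119018314-119018343, minus strand), RPSA (chr3:39406720-39406749, plus strand, 12 tags) and RPS3 (chr11:75399518-75399547, plus strand, 10 tags) are shown.
RPS25: ctttttgtccGACATCTTGACGAGGCTGCG
RPSA: ctttTCCGTGCTACCTGCAGAGGGgtccat
RPS3: cctttcctttCAGCGGAGCGCGGCGGCAAG
In RPS25 the peak covered bases 11 to 30, downstream of the pyrimidine tract at the start, and 4 of its 20 bases were T. In RPS3 it covered the same positions and held 0 T. Over the 10 start-site peaks the number of T ranged from 0 to 8 (RPL24). The motif CTTTCC, sought from 20 bases before to 20 after the start, was on the sense strand of 27.5% of 80 ribosomal protein start windows and 2.05% of 35116 windows of all genes. On the antisense strand the shares were 1.25% and 1.60%. The windows covered 65 symbols, of which 55 are members with a peak, and a match is a description only.

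The comparison of fractions asks how HuR tags on each part of these transcripts divide between nuclear and cytoplasmic material. In mock cells, the snoRNA peaks of ribosomal protein genes summed to 944.2, 1005.6 and 964.6 CPM in the nuclear libraries and 70.2, 93.7 and 110.7 CPM in the cytoplasmic ones, a 10.6-fold difference between the means of 971 ± 31.2 and 91.5 ± 20.3 (SD, n = 3 each). Exonic peaks ran the other way, at 173.4, 160.9 and 193.1 CPM in the nuclear and 509.5, 592.8 and 760.3 CPM in the cytoplasmic libraries, 3.53-fold higher in the cytoplasm. Intronic peaks averaged 181.9 ± 8.27 CPM in the nucleus and 131.9 ± 8.59 in the cytoplasm (SD, n = 3 each), a 1.38-fold difference. The groups did not overlap for any of the 3 parts. Box C/D snoRNAs differed 10.96-fold (953.4 against 87.0 CPM), and the box H/ACA snoRNAs 3.99-fold (18.1 ± 2.48 against 4.53 ± 1.62 CPM, SD, n = 3 each). The snoRNA peaks of the other 102 host genes summed to 2105 and 242.4 CPM, an 8.68-fold difference.

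**Figure D2:**
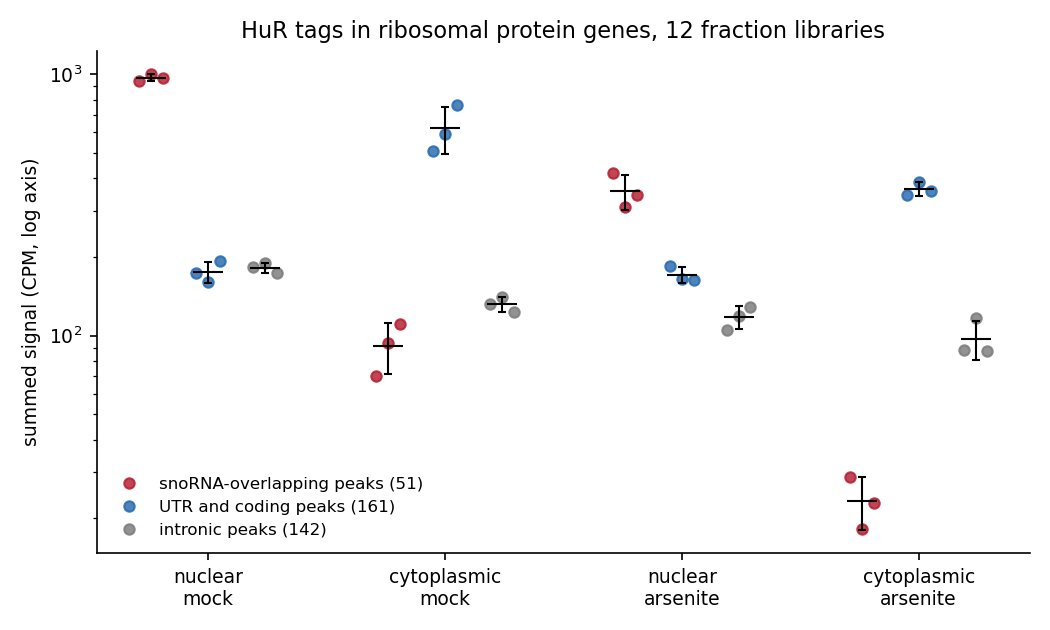
Summed CPM (log axis) of the 51 snoRNA, 161 UTR and coding, and 142 intronic peaks of ribosomal protein genes in the 12 fraction libraries; points are libraries and bars the mean ± SD of 3. The snoRNA sums separate the fractions most, the UTR and coding sums are higher in the cytoplasmic fraction, and the intronic sums are higher in the nuclear fraction by less.

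Gene by gene, the host snoRNAs were higher in the nuclear fraction in mock cells for 18 of 22 ribosomal protein genes tested and lower for none (limma on log2(CPM + 2.28), Benjamini-Hochberg adjusted p under 0.05). Over all snoRNA host genes 81.1% were called, so the ribosomal protein share of 81.8% is near that background, and the medians of the log2 difference were 2.22 and 2.00. RPL13A, a large-subunit protein whose introns hold SNORD32A, SNORD33, SNORD34 and SNORD35A, gave 170.5, 182 and 186 CPM against 10.6, 12.2 and 13.7 CPM, a 14.7-fold difference (log2 3.66, SE 0.181, limma adjusted p = 1.71e-09). RPL7A, host of SNORD24 and the SNORD36 genes, gave 154, 143 and 128 CPM against 7.45, 14.3 and 13.7 CPM, 12.02-fold apart. RPL23A, host of SNORD42A, SNORD42B, SNORD4A and SNORD4B, gave 138, 127 and 123 CPM against 10.6, 9.17 and 13.7 CPM, 11.6-fold apart. In each of these genes the nuclear and cytoplasmic libraries were separate, as they were for 18 of 22 ribosomal protein hosts and 82.1% of all snoRNA host genes.

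RPS12 had the peak with the most tags of the family over all libraries (2908) and, among the hosts tested, the largest snoRNA sum in cytoplasmic mock libraries. Its peak in SNORD101 (chr6:132815352-132815372, plus strand, ENSG00000112306) read 173, 208 and 186 CPM in nuclear and 18.1, 27.5 and 29.5 CPM in cytoplasmic mock libraries. Its snoRNA sum differed by 2.87 on the log2 scale (limma adjusted p = 1.31e-08). The highest peaks of the next host genes were SNORD34 in RPL13A (chr19:49490938-49490958, plus strand, ENSG00000142541), at 61.2, 58.2 and 85.9 CPM nuclear and 1.06, 6.11 and 3.16 CPM cytoplasmic, and SNORD24 in RPL7A (chr9:133349443-133349463, plus strand, ENSG00000148303), at 75.8, 66.4 and 54.1 against 3.19, 3.06 and 5.27 CPM. All 3 peaks were higher in every nuclear mock library than in any cytoplasmic one. The groups were separate for 37 of 42 tested snoRNA peaks of the family and 83.9% of all snoRNA peaks. As single peaks, 31 of 42 tested snoRNA peaks were higher in the nuclear fraction and 0 lower, 73.8% against 63.2% of all snoRNA peaks. The call at SNORD34 was lost without cytoplasmic mock library 2 (limma adjusted p = 0.0753) or 3 (0.0721), and that at SNORD24 without cytoplasmic mock library 2 (0.0753).

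The mRNA parts of ribosomal protein genes were mostly higher in the cytoplasmic fraction of mock cells, as were those of other genes. With the 9 snoRNA peaks that carry an exonic class left in, 5 of 48 tested genes were higher and 17 lower in the nuclear fraction, 45.8% called against 50.8% of all exonic sums. With those peaks left out, 2 of 45 were higher and 17 lower (42.2% against 50.7%). The median log2 difference was -0.65 without those peaks and -0.53 with them, against -0.89 over all exonic sums tested. The 17 lower genes, 8 of 25 tested RPL genes and 9 of 20 tested RPS genes, included RPL4, RPL5, RPL14, RPL15, RPL22, RPL23, RPL37, RPLP0, RPS15A, RPS20, RPS23, RPS25, RPS27A and RPS28. By class, 3'UTR peaks summed to 111.9 CPM in nuclear and 305.7 CPM in cytoplasmic mock libraries, 5'UTR peaks to 31.3 and 102.2 CPM, and coding peaks to 32.6 and 213.0 CPM.

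RPL23, a large-subunit protein that also binds the p53 regulator MDM2, accounted for most of the coding signal. Its peak in the coding sequence (chr17:38850386-38850406, minus strand, ENSG00000125691) read 4.37, 7.27 and 4.83 CPM in nuclear and 153, 166 and 211 CPM in cytoplasmic mock libraries. The highest nuclear value was below 10 CPM and the lowest cytoplasmic value above 150 CPM, a 32.2-fold difference (log2 -4.53, SE 0.245, limma adjusted p = 4.21e-05). This peak made up 28.6% ± 1.27 of the family's exonic tags in the cytoplasmic and 3.18% ± 1.16 in the nuclear mock libraries (SD, n = 3 each). The call was lost without cytoplasmic mock library 2 (limma adjusted p = 0.0753). Without RPL23, the coding peaks summed to 27.1 CPM in nuclear and 36.3 CPM in cytoplasmic mock libraries, and the exonic peaks to 150.5 and 409.8 CPM.

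RPL23 has 6 exonic peaks, and the 3'UTR and 5'UTR peaks with the most tags are described beside the coding peak, chosen after their values were seen. This 3'UTR peak (chr17:38850210-38850230) read 7.29, 8.18 and 18.3 CPM in nuclear and 2.13, 2.04 and 4.22 CPM in cytoplasmic mock libraries, higher in the nucleus without overlap. This 5'UTR peak (chr17:38853702-38853722) read 5.83, 2.73 and 8.69 against 15.96, 12.2 and 43.2 CPM, higher in every cytoplasmic library as the coding peak was. Over the whole gene the exonic sum was 20.4, 20.9 and 34.8 CPM in nuclear and 179.8, 183 and 269.9 CPM in cytoplasmic libraries (log2 -2.96, SE 0.218, limma adjusted p = 3.57e-08, 8.32-fold). When coding and 5'UTR peaks were left out, the RPL23 value turned to 1.12 on the log2 scale (limma adjusted p = 0.0379).

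**Figure D3:**
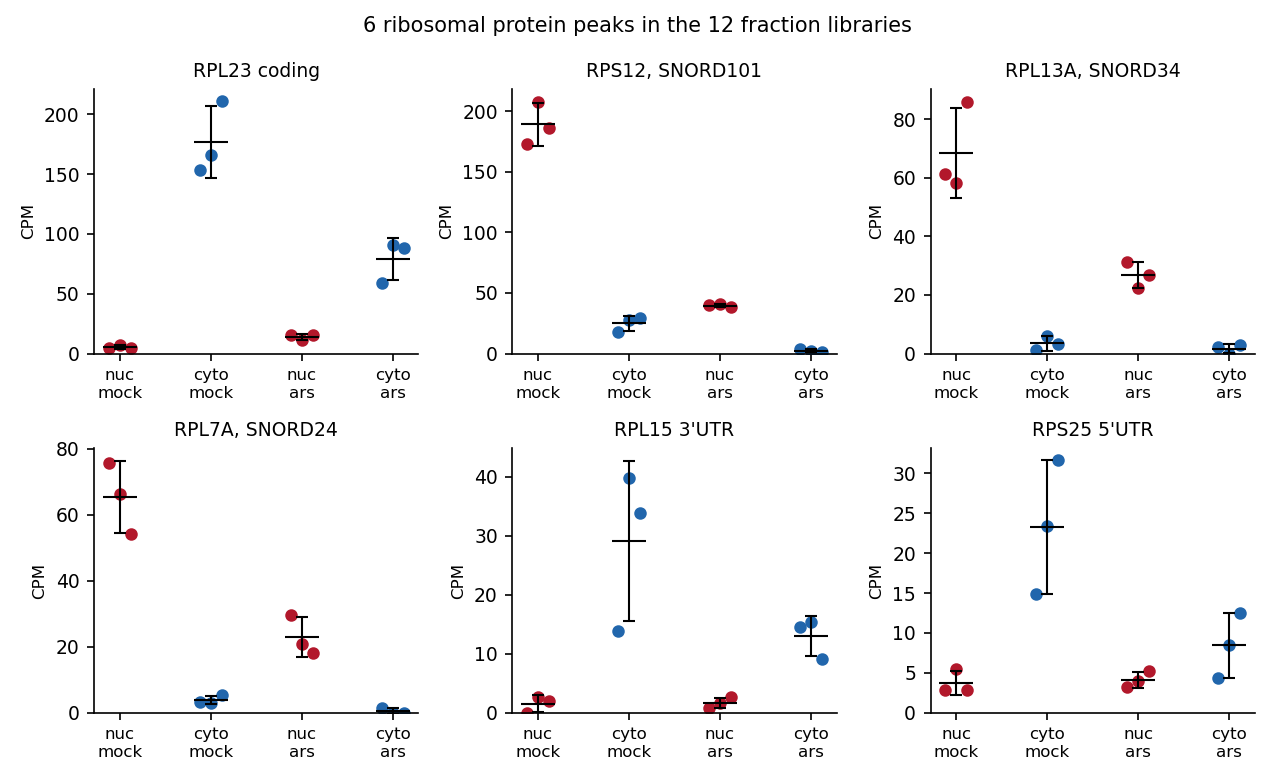
CPM of 6 peaks in the 12 fraction libraries, with the mean ± SD of 3: the RPL23 coding peak, the snoRNA peaks SNORD101 (RPS12), SNORD34 (RPL13A) and SNORD24 (RPL7A), the RPL15 3'UTR peak and the RPS25 5'UTR peak. The 3 snoRNA peaks are high in the nuclear mock libraries and the other 3 in the cytoplasmic mock libraries.

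Several other mRNAs were higher in every cytoplasmic mock library than in any nuclear one. RPL15, a large-subunit protein, gave 13.1, 13.6 and 10.6 against 35.1, 70.3 and 70.6 CPM (limma adjusted p = 1.96e-05, 4.71-fold). RPL5, which carries 5S ribosomal RNA into the ribosome and binds MDM2 when free, gave 0, 0 and 0.966 against 7.45, 7.13 and 9.49 CPM, a ratio of 22.6 with a counting interval of 3.67 to 931 (limma adjusted p = 0.000443). RPS25, which several viral internal ribosome entry sites require, gave 2.91, 6.36 and 5.79 against 19.1, 24.4 and 36.9 CPM (limma adjusted p = 0.000124, 5.34-fold). In none of these 3 genes did the groups overlap. Without snoRNA peaks the groups were separate for 20 of 45 ribosomal protein exonic sums and for 60.1% of all exonic sums.

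For RPL15 and RPS25 much of this came from 1 peak each. The RPL15 3'UTR peak (chr3:23919911-23919931, plus strand) read 0, 2.73 and 1.93 CPM in nuclear and 13.8, 39.7 and 33.7 CPM in cytoplasmic mock libraries. The RPS25 peak at the start site, whose sequence is printed above, read 2.91, 5.46 and 2.90 against 14.9, 23.4 and 31.6 CPM, and without coding and 5'UTR peaks RPS25 moved to 0.096 on the log2 scale (limma adjusted p = 0.822). Of 103 exonic peaks tested, 11 were lower in the nuclear fraction and 0 higher (10.7%); over all 3'UTR peaks 13.2% were called, over 5'UTR peaks 3.41% and over coding peaks 4.43%. The peak calls are fragile: leaving out nuclear library 2 or 3 or cytoplasmic library 1, 2 or 3 cut the 42 ribosomal protein peaks called to 13, 17, 13, 0 and 8. The RPL15 peak lost its call without nuclear library 2 or 3 or any 1 cytoplasmic library (limma adjusted p = 0.0533 to 0.161), and the RPS25 peak without any 1 of the 6 libraries (0.0551 to 0.160).

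The exonic sums that were higher in the nuclear fraction were largely snoRNA peaks with an exonic class. RPL13A (15.1-fold, limma adjusted p = 1.73e-07), RPL23A (8.84-fold, adjusted p = 1.78e-07) and RPL3 (25 against 0 tags, at least 2.63-fold by 3 tags per library, adjusted p = 0.000672) were called only with such peaks included. RPS3A (12 against 2 tags) and RPS19, a small-subunit protein mutated in Diamond-Blackfan anaemia (6 against 0 tags), were the others, and both rest on few tags. The RPS3A call was lost without nuclear library 2 or 3 or cytoplasmic library 1 or 3 (limma adjusted p = 0.0567 to 0.115) or with DESeq2 (0.176). The RPS19 call was lost without nuclear library 1 or 3 or any cytoplasmic library (0.0600 to 0.129).

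In hosts where both parts were tested in mock cells, the snoRNA and the mRNA lay on opposite sides about as often as in other hosts. Of 14 such genes in mock cells, 6 (42.9%) were called higher in the nucleus for the snoRNA and higher in the cytoplasm for the mRNA, among them RPL4, RPL5, RPL37 and RPS20, and RPS3A was the 1 gene called in the same direction for both. Of 36 other host genes 15 (41.7%) were called in opposite and 1 in the same direction. After arsenite 2 of 11 (18.2%) were called in opposite directions, against 3 of 39 other host genes (7.69%), a difference that was not tested. RPL4 gave snoRNA sums of 45.2, 60.9 and 53.1 against 3.19, 5.09 and 4.22 CPM and exonic sums of 0, 1.82 and 0.966 against 6.38, 4.07 and 6.33 CPM. Neither part of RPL4 overlapped between fractions.

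Introns showed less. In mock cells 2 of 45 intronic sums were higher in the nuclear fraction and 1 lower, 6.67% against 30.1% of all intronic sums, and the median was 0.24 against 0.48 over all intronic sums. The groups were separate for 8 of 45 of them, against 41.7% of all intronic sums. RPL41, the smallest ribosomal protein, gave 23.3, 24.5 and 21.2 CPM in nuclear and 7.45, 13.2 and 6.33 CPM in cytoplasmic libraries without overlap (log2 1.21, SE 0.282, limma adjusted p = 0.00294, 2.56-fold). RPS16 (13 against 2 tags, limma adjusted p = 0.0261) was also higher in the nucleus and RPL39 (3 against 14 tags, adjusted p = 0.0247) lower. The RPS16 call was lost without nuclear library 1 or any cytoplasmic library (limma adjusted p = 0.0769 to 0.148) or with DESeq2 (0.109), and the RPL39 call without nuclear library 1 or 3 or any cytoplasmic library (0.0530 to 0.131) or with DESeq2 (0.136).

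After arsenite the same fractions kept the contrast in snoRNAs and lost part of it in mRNAs. The snoRNA peaks summed to 417.2, 309.6 and 346.5 CPM in nuclear libraries and 18.2 to 28.9 CPM in cytoplasmic ones, a 15.3-fold difference. Exonic peaks summed to 185.0, 164.0 and 163.7 CPM in nuclear and 344.4 to 387.7 CPM in cytoplasmic libraries, a 2.13-fold difference. Intronic peaks averaged 117.7 ± 12.2 and 97.2 ± 16.8 CPM (SD, n = 3 each). The snoRNA and exonic groups did not overlap. The snoRNAs of 15 of 19 tested host genes were higher in the nuclear fraction and none lower (78.9% against 66.3% of all snoRNA host genes). RPL7A had the largest fold among the named hosts, at 59.3, 38.4 and 43.3 against 2.89, 1.71 and 2.09 CPM (21.1-fold, limma adjusted p = 1.38e-11). RPL23A followed at 20.7-fold (adjusted p = 6.07e-12) and RPL13A at 13.6-fold (adjusted p = 3.61e-12).

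Fewer mRNAs differed between the fractions of arsenite-treated cells. Of 49 exonic sums, 3 were higher in the nucleus and 8 lower, 22.4% against 12.5% of all exonic sums, and of 45 without snoRNA peaks 0 were higher and 8 lower (17.8% against 12.5%). RPL23 gave exonic sums of 30.4, 28.0 and 31.2 CPM in nuclear and 90.2, 117 and 125 CPM in cytoplasmic libraries (log2 -1.80, SE 0.147, limma adjusted p = 3.71e-10, 3.70-fold; with 3'UTR and intron peaks only, 0.26, adjusted p = 0.754). RPL15 gave 10.4, 15.2 and 10.4 against 39.0, 33.0 and 26.4 CPM (adjusted p = 8.40e-05, 2.73-fold), and its call was lost without nuclear arsenite library 3 (0.0551) or cytoplasmic arsenite library 2 (0.0647). Both genes were separate between the groups, as were 15 of 45 ribosomal protein exonic sums without snoRNA peaks and 30% of all exonic sums. RPL22, a large-subunit protein, read 3.20, 3.20 and 0 against 7.22, 10.2 and 6.96 CPM (limma adjusted p = 0.0170), a call lost without nuclear arsenite library 3 (0.172) or any 1 cytoplasmic arsenite library (0.0812 to 0.260). Leaving out nuclear arsenite library 3 or cytoplasmic arsenite library 1, 2 or 3 cut the 11 exonic and intronic calls to 4, 7, 3 and 6.

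The mRNA calls shared by both treatments were smaller after arsenite, as they were in other genes. Of 40 genes tested in both treatments, 7 (17.5%) were called in both, all 7 in the same direction and all 7 closer to 0 after arsenite. Of 6071 other genes 770 (12.7%) were called in both, and 725 of the 770 (94.2%) were closer to 0. For snoRNAs 14 of 19 (73.7%) were called in both in the same direction, and 10 of the 14 were closer to 0, against 45 of 64 other host genes (70.3%), 33 of them closer to 0. No intronic sum of 43 was called after arsenite (limma, against 2.83% of all intronic sums; 8 had an unadjusted p under 0.05), and 1 was, RPS27A, when snoRNA peaks were left out of the fit. As single peaks, 23 of 40 snoRNA peaks were higher in the nucleus (57.5% against 41.8% of all snoRNA peaks) and 2 of 108 exonic peaks lower (1.85% against 0.84% of all exonic peaks), the RPL23 coding peak and the RPL15 3'UTR peak. These 25 peak calls fell to 3, 4 and 0 without nuclear arsenite library 1, 2 or 3, and to 5, 0 and 4 without cytoplasmic arsenite library 1, 2 or 3.

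**Figure D4:**
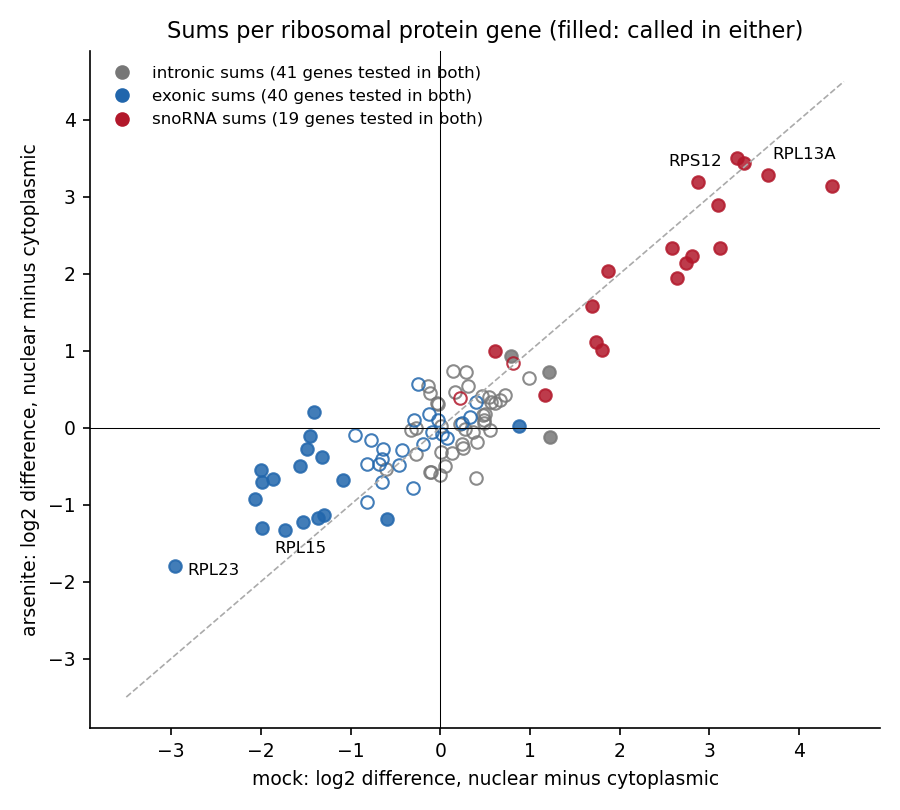
Log2 difference of nuclear minus cytoplasmic CPM (with 2.28 CPM added) per gene in mock cells (x) and after arsenite (y), for the snoRNA, UTR and coding, and intronic sums tested in both; filled points were called in either treatment. The 19 snoRNA points lie at the upper right and 16 of the 18 called UTR and coding points at the lower left; RPS19 is above 0 on both axes and RPS15A on the arsenite axis. Of the 18, 17 lie nearer to 0 on the arsenite axis than on the mock axis.

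Arsenite and mock libraries were then compared within each fraction to ask how stress changes HuR's contacts. The snoRNA sums fell 2.72-fold in the nuclear fraction (means 971 and 357.8 CPM) and 3.92-fold in the cytoplasmic fraction (91.5 and 23.3 CPM), without overlap in either. Exonic sums fell 1.71-fold in the cytoplasmic fraction (620.9 ± 127.7 and 363.7 ± 22.1 CPM) and stood at 175.8 ± 16.2 and 170.9 ± 12.2 CPM in the nuclear fraction (SD, n = 3 each), where the groups overlapped. Over all peaks the ribosomal protein share of tags went from 0.395% to 0.185% in the nuclear and from 0.229% to 0.133% in the cytoplasmic fraction. The snoRNA peaks of the other host genes fell 2.05-fold and 3.26-fold, and the ribosomal protein share of all snoRNA tags was 31.6% ± 0.470 in mock and 25.9% ± 1.76 in arsenite nuclear libraries (SD, n = 3 each).

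In the nuclear fraction the snoRNAs of 9 of 23 tested host genes fell and none rose (39.1% against 35.8% of all snoRNA host genes), and in the cytoplasmic fraction 6 of 15 fell and none rose (40% against 27.9%). RPS12 fell most among those named: its snoRNA sum went from 182, 221 and 198 CPM to 44.8, 44.0 and 45.9 CPM in the nucleus (log2 -2.10, SE 0.119, limma adjusted p = 2.85e-08, 4.46-fold) and from 19.1, 27.5 and 30.6 CPM to 5.05, 2.84 and 1.39 CPM in the cytoplasm (log2 -2.42, SE 0.308, limma adjusted p = 1.95e-05, 8.32-fold). Mock and arsenite libraries of RPS12 did not overlap in either fraction. The groups were separate for 16 of 23 ribosomal protein hosts in the nucleus (62.3% of all snoRNA host genes) and 8 of 15 in the cytoplasm (44.3%). Without RPS12 the snoRNA sums were 771.1 and 312.8 CPM in the nuclear and 65.8 and 20.2 CPM in the cytoplasmic fraction. RPL7A fell 3.02-fold (limma adjusted p = 4.33e-06) and RPL13A 2.56-fold (adjusted p = 9.25e-06) in the nucleus, from the mock values above to 59.3, 38.4 and 43.3 CPM and to 87.3, 55.2 and 67.6 CPM. RPS20, a small-subunit protein, fell 2.90-fold there, from 32.1, 30.0 and 28.0 CPM to 11.2, 11.2 and 8.66 CPM (adjusted p = 0.000489).

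Fewer of these calls remained when a library was left out. Without cytoplasmic arsenite library 2 only 1 of the 6 cytoplasmic snoRNA calls was left, with RPL7A at limma adjusted p = 0.0578 and RPL23A at 0.0565. Without nuclear arsenite library 3 the 9 nuclear calls went to 5.

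Among the mRNAs of the cytoplasmic fraction 9 of 46 exonic sums fell after arsenite and 0 rose (19.6% against 21% of all exonic sums); without snoRNA peaks 8 of 44 fell (18.2% against 21%), 3 of 26 RPL genes and 5 of 18 RPS genes. RPS25 fell from the mock values above to 4.33, 9.10 and 12.5 CPM without overlap (log2 -1.44, limma adjusted p = 0.00234, 3.10-fold), a call lost without cytoplasmic mock library 2 (0.0574) or cytoplasmic arsenite library 2 (0.0891), and with 3'UTR and intron peaks only (0.509). RPS12 fell in both fractions also outside its snoRNAs, at its single exonic peak, which lies in coding sequence and held 56 tags: from 8.51, 3.06 and 7.38 CPM to 0.722, 0 and 0.696 CPM in the cytoplasm (limma adjusted p = 0.00458) and from 8.74, 8.18 and 8.69 CPM to 2.40, 1.60 and 0 CPM in the nucleus (adjusted p = 0.00899). These groups were separate. Without snoRNA peaks 15 of 44 ribosomal protein exonic sums were separate in the cytoplasm (35.5% of all exonic sums) and 8 of 44 in the nucleus (35.7%). The cytoplasmic RPS12 call was lost without cytoplasmic arsenite library 2 (0.0913) and the nuclear one without nuclear arsenite library 2 (0.0610) or 3 (0.0661). RPL5 gave 7.45, 7.13 and 9.49 CPM in mock and 1.44, 4.55 and 1.39 CPM in arsenite cytoplasmic libraries (limma adjusted p = 0.0266), a call lost without cytoplasmic mock library 2 or 3 or cytoplasmic arsenite library 1 or 3 (0.0843 to 0.142), or with DESeq2 (0.0960).

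The cytoplasmic counts depended on single libraries. Of the 14 exonic and intronic calls, 5 and 6 were left without cytoplasmic mock library 2 or 3, and 3, 1 and 3 without cytoplasmic arsenite library 1, 2 or 3. Of 42 intronic sums 1 rose and 4 fell (11.9% against 17.1% of all intronic sums). RPL15 introns fell from 9.57, 9.17 and 9.49 CPM to 2.17, 3.41 and 2.78 CPM (limma adjusted p = 0.0122, 3.38-fold), a call lost without any 1 cytoplasmic arsenite library (0.0503 to 0.0619). At the peak level the RPL23 coding peak fell from the mock values above to 59.2, 90.4 and 88.3 CPM (log2 -1.14, limma adjusted p = 0.0409, 2.23-fold). It was the only 1 of 111 exonic peaks called (0.901% against 2.68% of all exonic peaks), and it lost its call without any 1 cytoplasmic mock library or without cytoplasmic arsenite library 1 or 2 (0.0581 to 0.245).

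In the nuclear fraction, the mRNA parts hardly moved as a set. Of 48 exonic sums 2 rose and 4 fell (12.5% against 15.8% of all exonic sums), and without snoRNA peaks 2 of 44 rose and 2 fell (9.09% against 16%); the median was -0.02 without those peaks, against 0.37 over all exonic sums. RPL14, a large-subunit protein, read 8.74, 7.27 and 6.76 CPM in mock and 23.2, 14.4 and 13.9 CPM in arsenite nuclear libraries (limma adjusted p = 0.0342, 2.26-fold), and RPS15A, a small-subunit protein, 2.91, 10.9 and 1.93 CPM and 12.01, 12.8 and 15.6 CPM (adjusted p = 0.0483, 2.56-fold). Neither gene's groups overlapped. The RPL14 call was lost without any 1 of the 6 libraries (limma adjusted p = 0.0671 to 0.180) or with DESeq2 (0.145), and the RPS15A call without nuclear mock library 1 or 3 or any 1 nuclear arsenite library (0.171 to 0.329) and under 5 further alternatives (0.0505 to 0.210). Of the 8 exonic and intronic calls, 4, 5 and 4 were left without nuclear mock library 1, 2 or 3, and 4, 3 and 2 without nuclear arsenite library 1, 2 or 3.

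The intron of RPL41 fell with arsenite in the nucleus. It went from 23.3, 24.5 and 21.2 CPM to 6.41, 7.20 and 4.33 CPM without overlap (log2 -1.63, SE 0.253, limma adjusted p = 0.000447, 3.85-fold), and it was 1 of 2 intronic sums called of 42 (4.76%, the same as the 4.76% of all intronic sums). Its main intronic peak was the only 1 of 84 intronic peaks called (1.19% against 0.0222% of all intronic peaks), and that peak's call was lost without nuclear mock library 1, 2 or 3 or nuclear arsenite library 1 or 2 (limma adjusted p = 0.126 to 0.307). Of 45 snoRNA peaks 9 fell (20% against 11% of all snoRNA peaks), and no exonic peak of 80 was called by limma (against 1.19% of all exonic peaks; 9 had an unadjusted p under 0.05). The 10 peak calls in this comparison went to 0, 1 and 1 without nuclear mock library 1, 2 or 3, and to 0 without nuclear arsenite library 1 or 2.

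The interaction of fraction and treatment asks whether the difference between nucleus and cytoplasm itself changed. A positive value means that the nuclear minus cytoplasmic difference rose after arsenite, which a fall in the cytoplasm alone can give. The interaction was positive for 8 of 54 exonic sums and negative for none (14.8% against 25.1% of all exonic sums). It was negative for 1 of 49 intronic sums, RPS7 (2.04% against 12.3%). The median over the ribosomal protein genes was 0.16, against 0.58 over all exonic sums. Without snoRNA peaks 8 of 50 exonic sums were positive (16% against 25.1%), and the median was 0.20 against 0.58. RPS15A gave a log2 interaction of 1.61 (SE 0.450, limma adjusted p = 0.00705) and RPL14 1.34 (SE 0.362, adjusted p = 0.00543). In mock cells both were higher in every cytoplasmic library but for RPS15A nuclear library 2, at 10.9 CPM against a lowest cytoplasmic value of 10.6 CPM. After arsenite RPL14 read 23.2, 14.4 and 13.9 CPM in nuclear and 16.6, 21.0 and 17.4 CPM in cytoplasmic libraries, so the groups overlapped, as did those of RPS15A (12.01, 12.8 and 15.6 against 8.66, 13.1 and 12.5 CPM).

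RPL23 gave a log2 interaction of 1.16 (SE 0.259, limma adjusted p = 0.000640) over its exonic sum and 2.22 (SE 0.353, adjusted p = 6.11e-06) at its coding peak. That peak was the 1 exonic peak of 148 with a called interaction (0.676% against 2.25% of all exonic peaks). Its nuclear level rose from 4.37, 7.27 and 4.83 CPM to 15.2, 11.2 and 15.6 CPM by value while its cytoplasmic level fell, and the call held in every alternative run. RPL5 (1.45, limma adjusted p = 0.0395), RPS25 (1.28, adjusted p = 0.0415), RPS20 (1.20, adjusted p = 0.0430) and RPS27A (0.95, adjusted p = 0.0340) were further exonic calls. Those of RPL5, RPS25 and RPS20 were lost under 10, 11 and 11 of 22 alternatives, most of them single libraries left out (highest adjusted p = 0.283, 0.741 and 0.168). Of the 9 exonic and intronic interaction calls, 4 to 6 remained without nuclear mock library 1 or 2, any 1 nuclear arsenite library, cytoplasmic mock library 2 or 3, or any 1 cytoplasmic arsenite library. Among snoRNA sums 1 of 24 was called (4.17% against 6.25% of all snoRNA host genes).

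In the input libraries of the APEX lines the snoRNA signal differed between library sets. In the NLS and NES inputs the snoRNA sum was 255.0 and 291.3 CPM in the JL0388 mock libraries, and 2311 and 992.0 CPM in the JL1024 ones. After arsenite it was 183.8 and 235.0 CPM in JL0388 and 870.5 and 921.6 CPM in JL1024. The exonic sums of the same lines went the other way, 76.0 to 113.8 CPM in JL0388 and 24.8 to 32.6 CPM in JL1024. The snoRNA share of ribosomal protein tags was 56.3% to 66.8% in the JL0388 and 94.6% to 98.3% in the JL1024 inputs of these lines. The G3BP inputs gave 202.6 and 445.9 CPM (JL0361), 328.0 CPM (JL0388) and 578.4 CPM (JL1024) in mock cells, and 58.6, 101.0 and 92.0 CPM (JL0361), 221.9 CPM (JL0388) and 143.7 CPM (JL1024) after arsenite. Within every set and line the arsenite input was lower than the mock input it can be set against. Some of these values rest on few tags: the G3BP values of 202.6 and 58.6 CPM on 4 and 1, and that of 578.4 CPM on 13. The NES inputs of JL1024 were close, with 120 tags in mock and 113 after arsenite.

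With the APEX line and library set combined as a covariate, no ribosomal protein gene was called between arsenite and mock inputs. This held for 35 exonic and intronic sums (0% of all such sums; 1 had an unadjusted p under 0.05) and for 17 snoRNA sums (0% of all snoRNA host genes; 1 unadjusted) in limma, while edgeR's quasi-likelihood test on whole tags called 4 and 11.

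Enriched libraries hold the RNA crosslinked to HuR that was close to APEX. Set against the inputs of the same line, the calls for ribosomal protein genes all pointed to lower levels after capture. So did every exonic and snoRNA call over all genes: 332 exonic sums were lower in NLS, 77 in NES and 9 in G3BP, and 0 were higher. The median log2 difference of exonic sums in NLS was -0.51 for ribosomal protein genes and -0.59 over all genes, against -1.36 and -0.62 in NES and -1.19 and -0.26 in G3BP. Without snoRNA peaks the ribosomal protein medians were -0.49 in NLS, -1.24 in NES and -0.87 in G3BP. In the NLS line 6 of 21 exonic sums were lower (28.6% against 7.81% of all exonic sums), 3 of 19 intronic sums (15.8% against 1.98%) and 5 of 24 snoRNA sums (20.8% against 10.3%). In the NES line 3 of 8 exonic sums were lower (37.5% against 3.89%), and in the G3BP line 2 of 6 (33.3% against 0.394%). Without snoRNA peaks the exonic counts were 6 of 17 in NLS (35.3% against 8.02%) and 2 of 4 in NES (50% against 3.71%). In G3BP 0 of 4 were called without those peaks (0.307% of all exonic sums, 1 unadjusted). For snoRNAs limma called 0 of 16 in the NES line (4.17% of all snoRNA host genes; 2 unadjusted, 0 by edgeR) and 0 of 7 in the G3BP line (17.2%; 5 unadjusted, 6 by edgeR, and 0 to 5 when 1 library was left out). RPL37, a large-subunit protein, read 9.59, 8.27, 4.95 and 8.16 CPM in the 4 NES inputs and 0 in all 8 NES enriched libraries (log2 -2.11, SE 0.465, limma adjusted p = 0.00724), and RPS23 was likewise 0 in all 8 NLS enriched libraries (adjusted p = 0.0293). The RPL37 call was lost when values were scaled to the tags in peaks (0.0720), and the RPS23 call in 5 of 20 alternatives: without NLS arsenite input library 1 (0.0564), with the library pairs counted once (0.0673), with the larger pseudocount (0.0554), with no filter (0.0670) and in edgeR (0.160).

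Depth sets how these counts can be read. With 0 to 472 ribosomal protein tags in an enriched library, a gene at 0 there is below what the library could show. The inputs were the smaller group in each line, so a row could enter the test through them alone. Inputs were also deeper, with a median of 143744 tags in peaks against 12689 in enriched libraries. Filter and depth thus favour lower values after capture, and the direction and shares of these calls cannot be read as an effect of capture. The number of NLS calls among exonic and intronic sums, 9, went to 0 without NLS arsenite input library 1, to 5 or 6 without NLS enriched arsenite library 1 or 3, and to 16 without NLS mock input library 2. It also went to 0 with the 4 library pairs counted once, with a pseudocount 4 times larger or with no filter on low values. In edgeR it went to 3, of which 1 was among the 9. The 5 NLS snoRNA calls fell to 0 to 3 without any 1 of the 4 NLS inputs, NLS enriched mock library 3 or 4, or NLS enriched arsenite library 3. The 3 NES calls fell to 1 without NES mock input library 1 and to 0 when scaled to tags in peaks. The 2 G3BP calls, RPL13A and RPL23A, fell to 0 without the libraries under 2000 tags in peaks and when scaled to tags in peaks. Leaving out a single library could also bring the G3BP calls to 0.

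**Figure D5:**
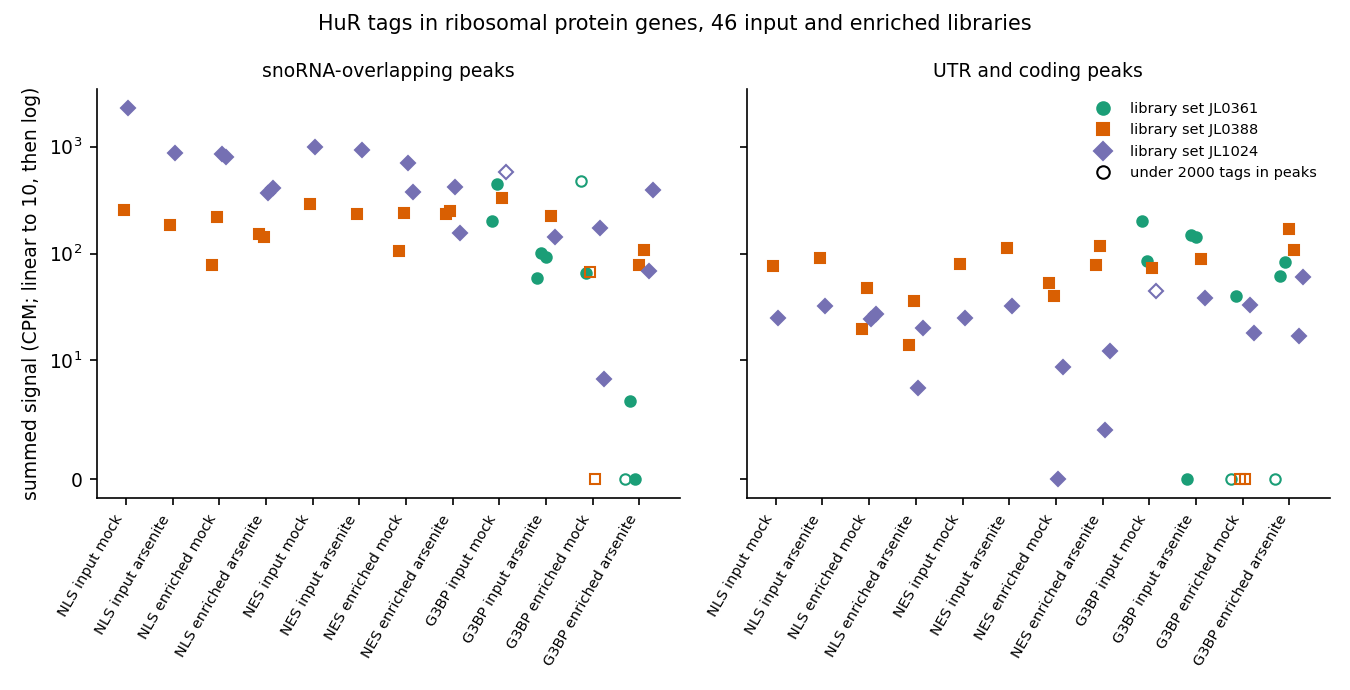
CPM (linear up to the bend, then logarithmic) of the snoRNA peaks (left) and of the UTR and coding peaks (right) of ribosomal protein genes in the 46 input and enriched libraries by group; colour gives the library set and open symbols mark libraries under 2000 tags in peaks. JL1024 libraries of the NLS and NES lines sit above JL0388 libraries on the left and below them on the right in the inputs.

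Between compartments, the snoRNAs of RPL13A were the only ribosomal protein call: in mock cells they read 14.8, 54.7, 96.5 and 85.9 CPM in NLS enriched and 0, 0, 0 and 56.9 CPM in NES enriched libraries (log2 3.39, SE 0.952, limma adjusted p = 0.0234; 1 of 14 snoRNA sums, 7.14% against 5.56%). The groups overlapped, and the call was lost without NLS enriched mock library 2, 3 or 4 or NES enriched mock library 1, 2 or 3 (limma adjusted p = 0.0508 to 0.120), and under 4 further alternatives (0.0552 to 0.127). After arsenite 0 of 12 snoRNA sums were called by limma (1.82% of all; 1 had an unadjusted p under 0.05) and 0 by edgeR. The snoRNA sums over all ribosomal protein hosts were 78.8, 218.7, 854.9 and 797.8 CPM in NLS and 105.7, 238.4, 699.5 and 379.2 CPM in NES enriched mock libraries, the first pair of each being JL0388 and the second JL1024. Exonic and intronic sums were too sparse to compare, with 2 rows tested for NLS against NES in mock and 6 after arsenite, and 2 and 1 for G3BP against NES. Limma and edgeR called 0 of them (background over all exonic sums 4.95% and 1.29% against NLS, 0.324% and 7.36% against G3BP), and 1 after arsenite had an unadjusted p under 0.05. Arsenite against mock within the enriched libraries gave 0 calls by limma and edgeR among 6 rows tested for NLS, 2 for NES and 2 for G3BP (0% of all exonic sums in each), with 0 unadjusted in limma and 1 in edgeR (NLS).

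Levels of the best known members were mostly low. RPS6, the S6 kinase substrate, had 22 exonic tags, at 1.25, 2.43, 0.267 and 1.27 CPM on average in the nuclear mock, cytoplasmic mock, nuclear arsenite and cytoplasmic arsenite libraries. RPL11, the partner of RPL5 in the 5S particle, had 12 exonic tags and 50 intronic tags. RPSA, also known as the laminin receptor, had 45 exonic tags at 2.07 to 3.12 CPM in the 4 groups, and RPLP0, of the ribosomal stalk, 43 at 0.909, 4.21, 1.33 and 3.26 CPM. Many of these means, and the lowest of RPS6 and RPLP0 by far, lie below the level of 3 tags. By exonic level over the 12 fraction libraries RPL23 was first with 94.2 CPM, ahead of RPL37 with 38.7 and RPL15 with 28.98 CPM, sums over peaks that are not scaled by length. Of the paralogs with the suffix L, RPL36AL had 9 tags in all and RPS27L 70 exonic and 14 intronic tags.

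Other genes of the translation machinery gave a frame for the mRNA results in mock cells. Of 20 tested exonic sums in a list of 22 further TOP mRNAs and ribosome partners, 2 were higher in the nucleus and 11 lower (65%), of 27 mitochondrial ribosomal protein genes 0 and 14 (51.9%), and of 10 ribosome assembly genes 0 and 4 (40%), against 50.8% of all exonic sums. Their medians were -0.98, -0.90 and -0.86. The cytosolic ribosomal protein genes had a median of -0.53 with 45.8% called when snoRNA peaks were left in. Without those peaks the values were -0.65 and 42.2%. The interaction was positive for 8 of 20 of the TOP and partner list (40%), 6 of 36 mitochondrial (16.7%) and 3 of 14 assembly genes (21.4%). Among the cytosolic ribosomal protein genes the share was 14.8%, or 16% without snoRNA peaks.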

How the data were processed

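The authors deposited 1 table of 395471 lines with a signal per peak and library; 8257 repeated lines were dropped. Its values are the number of CLIP tags in a 20-nt peak divided by a total of the library: every column's values are whole multiples of its smallest value, and 100% came out as whole tags (tolerance 0.1). Annotation classes and gene names are the table's, and 84358 peaks have no name. Build GRCh38.p14, Bowtie2, SAMtools, bedtools and HOMER are named in the submitters' processing notes; the peak caller and the treatment of duplicate reads are not given in the sources used here. Coordinates are printed as deposited, their base (0 or 1) being unstated. Fraction libraries had totals of 686263 to 1759090 tags, 34.1% to 38.7% of them in peaks. Floors and intervals cover counting error only (95%, exact; floor of 3 tags per library).

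Peaks were summed per gene into exonic (3'UTR, 5'UTR, coding) and intronic parts. Further versions, with snoRNA-annotated peaks left out or summed as a part of their own, and the interaction on single peaks, were added after seeing the data. Sums of all genes, and single peaks, were tested with limma 3.58.1 in R 4.3.3 (lmFit, eBayes with trend) on log2(CPM + 2.283806), the pseudocount understating folds of low rows, with two-sided Benjamini-Hochberg adjusted p under 0.05. A row was tested if its non-zero libraries were no fewer than those of the smaller group; of 57 exonic, 49 intronic and 24 snoRNA rows of ribosomal protein genes, 48, 45 and 22 did so in the mock fraction comparison. The library set, and treatment where it was pooled, were covariates. For arsenite against mock inputs the covariate combined APEX line and library set. Folds are ratios of mean CPM. edgeR 4.0.16 (quasi-likelihood) and DESeq2 1.42.0 on the recovered whole tags were alternatives, and all scripts were tested on simulated data. Tables and figures used pandas 2.3.3, numpy 2.4.6, matplotlib 3.10.9 and scipy 1.17.1 in Python 3.11.15.

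The members and gene lists were chosen with earlier results of these data known. Named genes are the called rows with the largest differences (5 and 5 exonic, 3 and 3 intronic in the fraction tests, 2 and 2 elsewhere; 3 and 3 peaks), the 8 exonic and 4 intronic sums and 4 peaks with the highest levels, and 9 well known members; snoRNA sums followed the exonic rule, and genes outside the rule were chosen after their values were seen. Some genes that the rule names are not reported here; counts and sums include them. Among enriched libraries, numbers 1 and 2 of NLS (in mock and again in arsenite), 1 and 2 of NES arsenite, and 4 and 5 of G3BP arsenite did not differ detectably beyond counting noise (chi-square per degree of freedom 1.07 to 1.09, p = 0.058 to 0.109). That check covered 500 peaks per pair in shallow libraries, so it does not show that the pairs are alike. In the ribosomal protein snoRNA sum, NLS mock libraries 1 and 2 read 78.8 and 218.7 CPM. Each pair was counted as 1 sample in means ± SD, and tests kept every library. Same-numbered fraction libraries did not deviate together (correlations -0.012 to 0.0388).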

Additional observations from a re-analysis of the deposited data

Results flagged for a closer look

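In the G3BP enriched libraries, 2 stood apart from the rest of their group in the snoRNA sum of ribosomal protein genes. Arsenite library 7 read 388.3 CPM, and mock library 1 read 473.9 CPM, which rests on 3 tags in a library with 519 tags in peaks. These are 2 of 25 groups and quantities examined, and chance flags about 1 in 20.

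The nuclear minus cytoplasmic difference changed between mock and arsenite, by the interaction test, for 8 exonic sums, among them RPS15A (log2 1.61), RPL5 (1.45), RPL14 (1.34), RPS25 (1.28), RPS20 (1.20), RPL23 (1.16) and RPS27A (0.95), and for the RPL23 coding peak (2.22). It changed in the other direction for RPS7 introns (-1.05), where 14 tags lie behind the value. The RPS7 call was lost under 11 of 22 alternatives, with limma adjusted p up to 0.110. RPS27A rests on 11 exonic tags in all libraries.

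Peaks named for pseudogenes of ribosomal protein genes, which the rule left out, held 2042 tags in 88 peaks of 59 pseudogenes. They summed to 41.0 ± 5.41 CPM in nuclear and 179.7 ± 26.2 CPM in cytoplasmic mock libraries, and to 44.1 ± 2.59 and 114.3 ± 12.6 CPM after arsenite (SD, n = 3 each). Processed pseudogenes are near copies of the mRNAs, and which copy such tags came from cannot be told apart in the table.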

How the results depend on the processing

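Of 264 recomputed counts of called ribosomal protein rows, 195 were within 1.5 times the reported count, and of 1411 recomputed single rows 1087 kept their direction and call, 320 lost the call (248 of them on leaving out a library) and 4 reversed. With 3'UTR and intron peaks only, RPL23 turned to 1.12 (adjusted p = 0.0379) in mock and 0.26 (0.754) in arsenite fractions, RPS25 to 0.096 (0.822) in mock fractions, and the RPS25 interaction to -0.20 (0.741), since their coding and 5'UTR peaks carry the signal; interaction calls went from 9 to 4 and arsenite fraction calls from 11 to 7. In what follows, exonic and intronic sums are gene sums. With a pseudocount 4 times smaller, gene sum calls were 1 for NLS against NES after arsenite (0 reported), 5 for arsenite in the nuclear fraction (8), 0 for G3BP enriched against input (2) and 6 for the interaction (9); peak calls 6 for arsenite in the cytoplasmic (2) and 2 in the nuclear fraction (10) and 16 between arsenite fractions (25); snoRNA calls 1 for NLS against NES after arsenite (0) and 0 for the interaction (1). With one 4 times larger, NLS enriched against input gave 0 gene sum (9) and 0 snoRNA calls (5), arsenite in the nuclear fraction 3 peaks (10), NLS against NES mock 0 snoRNA calls (1), G3BP enriched against input 1 (0) and the interaction 4 (1). With no filter, enriched against input gave 0 gene sums for G3BP (2), 2 for NES (3) and 0 for NLS (9) and 0 NLS snoRNA calls (5), peak calls were 4 (2) and 15 (10) for arsenite in the cytoplasmic and nuclear fractions, and NLS against NES mock gave 0 snoRNA calls (1). Requiring non-zero values in every library of a group, fewer peaks were tested and calls were 28 (2) and 38 (10) for arsenite in the cytoplasmic and nuclear fractions, 9 for the interaction (1), and 62 (25) and 79 (42) between arsenite and mock fractions; gene sums gave 1 for G3BP and for NLS against NES after arsenite (0 each) and 0 for G3BP enriched against input (2), and snoRNAs 1, 1 and 2 for NLS against NES after arsenite and for G3BP and NES enriched against input (0 each). edgeR called 4 gene sums and 11 snoRNAs for arsenite in inputs (0 each), 4, 2 and 3 gene sums for G3BP, NES and NLS enriched against input (2, 3, 9), 6 and 9 snoRNAs for G3BP and NLS (0, 5), 5 gene sum interactions (9), 5 and 18 peaks for arsenite in the cytoplasmic and nuclear fractions (2, 10), and 0 snoRNAs for NLS against NES mock and for the interaction (1 each). DESeq2 called 6 and 4 gene sums for arsenite in the cytoplasmic and nuclear fractions (14, 8), 3 interactions (9) and 5 between arsenite fractions (11). Scaled to tags in peaks, gene sums gave 1 for NLS against NES after arsenite (0) and 0 for G3BP and NES enriched against input (2, 3), peaks 4 for arsenite in the cytoplasmic fraction (2), and snoRNAs 1 and 0 for NLS against NES after arsenite and in mock (0, 1), 0 for NLS enriched against input (5) and 2 for the interaction (1). With the 4 library pairs counted once, gene sums gave 1 for NLS against NES mock (0), 1 for G3BP (2) and 0 for NLS enriched against input (9), and snoRNAs 2 for NLS (5). Without libraries under 2000 tags in peaks, G3BP against NES mock gave 3 gene sums (0), and G3BP enriched against input 0 gene sums (2) and 1 snoRNA (0). With snoRNA peaks left out, 0 and 2 gene sums were called for G3BP and NES enriched against input (2, 3). The replicate number as a block moved 1 count, arsenite in the cytoplasmic fraction, to 5 peaks (2), and over the fraction comparisons 12 of 24 samples correlated best with their own number. The cause of these moves was not tested beyond the tests' own construction.

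Leaving out 1 library gave, for gene sums, 18 to 23 calls between mock fractions, 3 to 9 between arsenite fractions, 1 to 14 and 2 to 5 for arsenite in the cytoplasmic and nuclear fractions, 4 to 11 for the interaction, 0 to 2, 1 to 4 and 0 to 16 for G3BP, NES and NLS enriched against input, 0 to 1 for NLS against NES mock, and 0 to 0 for NLS against NES after arsenite, G3BP against NES, arsenite within enriched libraries and arsenite in inputs. For peaks it gave 0 to 47 and 0 to 5 between mock and arsenite fractions, 0 to 7 and 0 to 8 for arsenite in the cytoplasmic and nuclear fractions, and 1 to 1 for the interaction. For snoRNAs it gave 16 to 17 and 11 to 14 between mock and arsenite fractions, 1 to 7 and 5 to 9 for arsenite in the cytoplasmic and nuclear fractions, 0 to 1 for the interaction and for NLS against NES in each treatment, 0 to 5, 0 to 3 and 0 to 5 for G3BP, NES and NLS enriched against input, and 0 to 0 in inputs. Depth limits the enriched libraries most, where a gene with no tag may lie below what the library could show.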
